A study of Mus musculus with 6 samples.

Results

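The cyclin-dependent kinase (CDK) inhibitors, the p53 pathway and the nuclear lamin that is lost in senescence were followed through 10 genes: Cdkn1a, Cdkn1b, Cdkn2a, Cdkn2b, Cdkn2c, Trp53, Mdm2, Sesn1, Fas and Lmnb1. They were picked by name, as known cell cycle inhibitors and p53 pathway genes, and all 10 were found by Ensembl identifier among the 27263 genes of the deposited tables. The samples were primary stromal cells from the marrow of mouse leg bones (strain C57BL/6, age and sex not given in the labels), sorted as Sca-1-positive and CD29-positive cells lacking CD45 and CD11b and then grown in serum-containing medium. GCA cells received recombinant GCA (rGCA) at 50 nM for 3 days, and PBS cells received the buffer for the same 3 days, with 3 libraries in each group. GCA is taken here, from knowledge outside the labels, to be grancalcin, a calcium-binding protein made by myeloid cells. Whether the 3 libraries of a group stem from different animals or dishes is not labelled. Each p-value therefore reflects library-to-library spread alone, and that spread may be technical. Levels are in FPKM (the files name no unit, and this one was inferred from the values), fragments counted per exon length and per library size, which allows genes of different length to be compared.

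CDK inhibitors bind CDKs or cyclin-CDK complexes and can hold cells before DNA replication. The CIP/KIP family (Cdkn1a, Cdkn1b, Cdkn1c) acts on several cyclin-CDK complexes, and the INK4 family (Cdkn2a, Cdkn2b, Cdkn2c, Cdkn2d) acts on Cdk4 and Cdk6. The transcription factor p53, encoded by Trp53, is activated by DNA damage and other stress and switches on Cdkn1a, which encodes p21, and its own antagonist Mdm2, an E3 ubiquitin ligase that marks p53 for degradation. In cultured stromal cells, rising Cdkn2a and Cdkn1a and falling Lmnb1 are widely used marks of senescence, the lasting arrest of cells that stay metabolically active.

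The deposited value of Cdkn2a joins transcripts from a pair of start sites, and the value of Cdkn1a likewise. The DNA before these starts, except the downstream Cdkn1a start, is shown to make clear what a gene-level number covers. Cdkn2c and Sesn1 also have 2 listed starts each, and their windows are not shown. The windows are from RefSeq on GRCm38.p6, cover up to 250 bases before each listed start, leave out bases that GENCODE M21 places in an exon, and read 5′ to 3′ on the strand of the gene. Among the windows searched, 9 of the 10 genes were matched by symbol. Lmnb1 had no window there, and whether the full reference holds one was not tested. The background shares below are of the windows searched, which may not be all windows of the reference. The Cdkn1a window (chr17:29090729-29090975, plus strand) lies before the upstream start, and its capitals mark a match to the 20-base p53 consensus, with 1 letter off:
Cdkn1a upstream start: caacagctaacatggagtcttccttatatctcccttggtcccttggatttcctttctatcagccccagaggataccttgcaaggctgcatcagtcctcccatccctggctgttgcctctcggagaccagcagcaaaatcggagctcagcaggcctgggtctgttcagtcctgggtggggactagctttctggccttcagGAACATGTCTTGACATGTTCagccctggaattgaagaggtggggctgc
This match (chromosome 17, 29090928 to 29090947) starts 2841 bases before the downstream Cdkn1a start. A match with at most 1 letter off and both cores kept was in 19 of 32851 windows of 250 bases (0.0578%), and among the windows of these genes it was in that of the upstream Cdkn1a start. The Cdkn2a windows (chr4:89294654-89294869 and chr4:89282193-89282442, minus strand) belong to the start of the p19Arf transcript and to that of the p16Ink4a transcript, 12427 bases apart, and the Cdkn2b window (chr4:89311040-89311282, minus strand) to the neighbouring gene. Capitals mark the E2F motif (TTTCCCGC, TTTGGCGC, TTTCGCGC or TTTGCCGC on either strand) and the GC box (GGGCGG on either strand), which have no letters in common here:
Cdkn2a p19Arf start: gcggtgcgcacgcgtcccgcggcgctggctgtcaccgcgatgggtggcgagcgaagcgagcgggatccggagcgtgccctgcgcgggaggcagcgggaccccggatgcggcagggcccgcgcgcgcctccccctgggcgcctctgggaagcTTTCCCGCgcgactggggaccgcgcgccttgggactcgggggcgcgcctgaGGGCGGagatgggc
Cdkn2a p16Ink4a start: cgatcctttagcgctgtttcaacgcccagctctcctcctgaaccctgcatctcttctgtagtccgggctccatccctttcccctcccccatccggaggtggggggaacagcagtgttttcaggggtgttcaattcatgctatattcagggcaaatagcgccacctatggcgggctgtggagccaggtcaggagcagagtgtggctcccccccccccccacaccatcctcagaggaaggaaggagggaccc
Cdkn2b: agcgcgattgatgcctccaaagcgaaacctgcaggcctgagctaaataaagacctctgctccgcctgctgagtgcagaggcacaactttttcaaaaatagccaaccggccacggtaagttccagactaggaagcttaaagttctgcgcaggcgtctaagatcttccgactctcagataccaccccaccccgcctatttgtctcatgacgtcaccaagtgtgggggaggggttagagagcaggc
The E2F motif was in the p19Arf window and in 1.86% of the 32851 windows, and the GC box in 32.7% of them. Neither set of letters was in the shown p16Ink4a or Cdkn2b window. The deposited value sums the transcripts of both Cdkn2a starts, so the level of p16Ink4a cannot be told from that of p19Arf.

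Of 11984 genes averaging 1 FPKM or more, 2151 (17.9%) passed an adjusted p of 0.05 between GCA and PBS (limma-trend on log2(FPKM + 1), Benjamini-Hochberg), 1380 higher (11.5%) and 771 lower (6.43%) with GCA. Quantile normalization gave 1198 higher and 1027 lower, and the count of 2151 was 1375 with GCA replicate 1 left out and 1308 and 1232 with PBS replicates 2 and 3 left out in turn. Library totals were not given. Those inferred from the FPKM values ran from 17543511 to 18645936 fragments, and the fragments recovered with them summed to more than this total in each library. By the same inference each of the 10 genes had at least 228 fragments in every library. Of the sort markers, Ly6a (Sca-1) stood at 324.5 ± 33.2 FPKM with GCA and 284.1 ± 41.4 with PBS, and Itgb1 (CD29) at 312.5 ± 21.1 with GCA and 347.6 ± 17.6 with PBS (SD, n = 3 each). The genes of the markers sorted against were present, Ptprc (CD45) at 13.4 ± 0.89 FPKM with GCA and 12.6 ± 0.59 with PBS and Itgam (CD11b) at 30.5 ± 8.995 FPKM with GCA and 39.3 ± 3.35 with PBS. Macrophage transcripts were abundant although the sort was against such cells. The summed FPKM of 20 macrophage markers was 18830 to 19925 in GCA and 21033 to 23367 in PBS, with 10 higher, 1 lower (Lyz2) and none at 0 throughout. Lyz2 alone gave 8078 to 9691 FPKM in GCA and 12625 to 14220 in PBS. The sum of the other 19 markers ran the opposite way, at 10234 to 10783 FPKM in GCA and 8408 to 9303 in PBS. Not each of the 19 did so: Itgam had a lower mean with GCA, and 9 of the 20 markers did not pass. After quantile normalization Lyz2 and C1qb did not pass (adjusted p = 0.438 and 0.368). The summed FPKM of 20 stromal markers was 4723 to 5077 in GCA and 5467 to 5814 in PBS, with 6 of 17 tested lower. Markers of other cells summed to at most 5.45 FPKM for 6 neutrophil genes, 3.45 for 8 endothelial genes and 1.33 for 4 erythroid genes in any library. The 7 B cell genes summed to 14.5 to 16.1 FPKM in GCA and 9.89 to 10.7 in PBS. Of these, 4 were under the filter and 2 of 3 tested were higher (Cd22 and Blnk). The 3 T and NK genes summed to 3.98 to 4.85 FPKM in GCA and 1.69 to 1.77 in PBS. Of these, 2 were under the filter and the 1 tested (Cd4) was higher. The part of this mixture in the results was not tested. In such bulk libraries fewer cells of a type and less RNA per cell cannot be told apart.

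All 10 genes were expressed, and they kept much the same order of level in both groups. In GCA libraries Cdkn1a was the most abundant at a mean of 227.1 FPKM, followed by Cdkn2a (124.6), Cdkn2b (74.5), Mdm2 (52.5), Sesn1 (27.4), Fas (25.7), Trp53 (20.4), Cdkn2c (12.8), Cdkn1b (8.75) and Lmnb1 (7.81). In that order the ranges of Sesn1 and Fas overlapped, as did those of Cdkn1b and Lmnb1, while the other neighbours stood apart. In PBS libraries Cdkn1a (202.3), Cdkn2a (125.7), Cdkn2b (80.2), Mdm2 (56.8), Fas (31.3), Trp53 (23.2), Sesn1 (19.3), Cdkn1b (8.63), Cdkn2c (7.90) and Lmnb1 (4.78) followed each other with no overlap between neighbours. Sesn1 thus ranked below Fas and Trp53 in PBS and level with Fas in GCA, and Cdkn2c ranked below Cdkn1b in PBS and above it in GCA. Of the 10 genes 4 passed the threshold higher with GCA (Cdkn2c, Lmnb1, Sesn1 and Cdkn1a), 1 lower (Fas) and 5 did not pass, which is 50% called beside the 17.9% of all genes tested. The genes, and the lists below, were chosen with earlier results of these data known, so such shares do not test a set. The median log2 fold change of the 10 genes was −0.0003, beside 0.01 over all genes tested. In 7 of the 10 the GCA and PBS values did not overlap (4 with GCA above and 3 with GCA below), beside 38.5% of all genes tested.

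**Figure D1:**
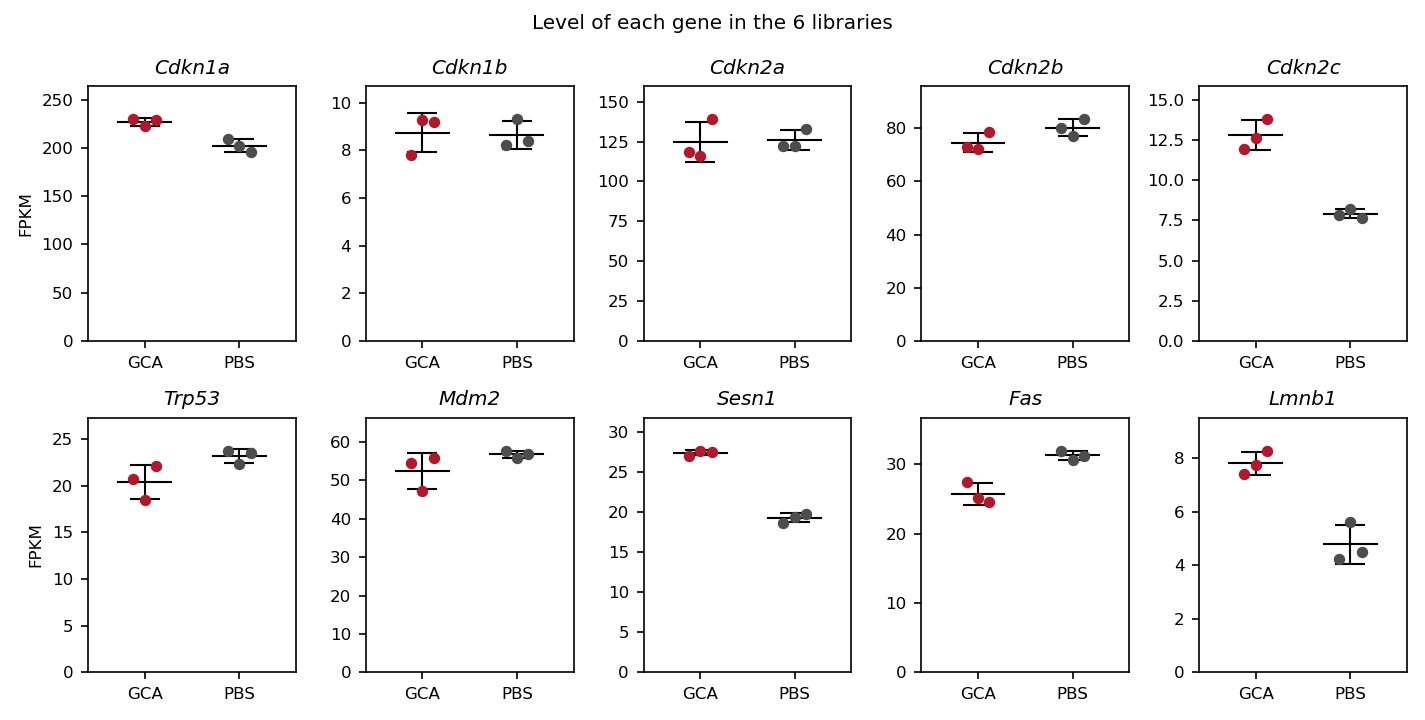
Level in FPKM of the 10 genes in each library (points), GCA left and PBS right, with the mean and SD of 3 libraries; each axis starts at 0. GCA points lie above PBS points for Cdkn1a, Cdkn2c, Sesn1 and Lmnb1 and below them for Trp53, Fas and Mdm2 (touching for Mdm2, where 55.80 in GCA lies just under 55.82 in PBS).

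**Figure D2:**
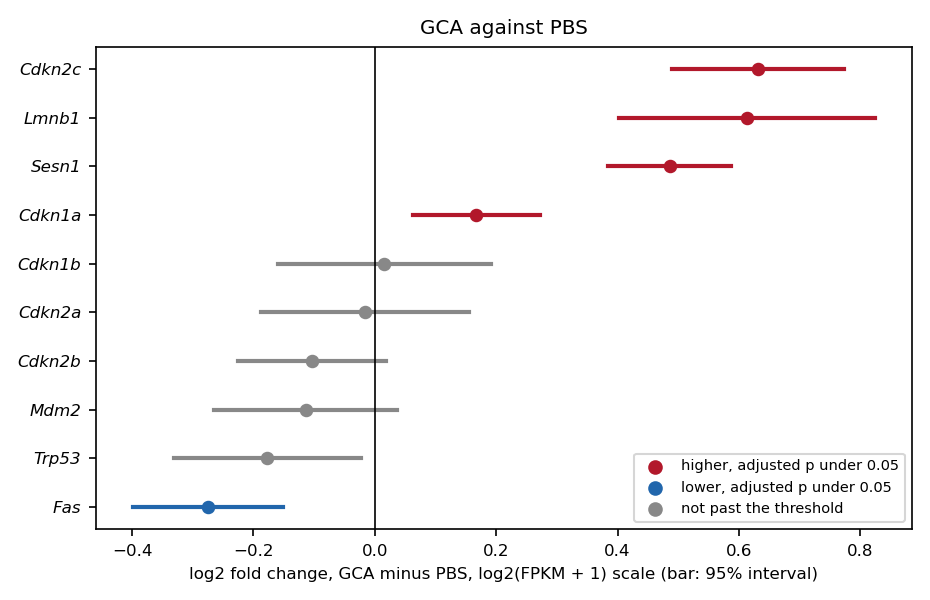
Difference between GCA and PBS in log2 units for the 10 genes, with the 95% interval of the limma fit before any adjustment for multiple testing. Cdkn2c (0.63), Lmnb1 (0.61) and Sesn1 (0.49) lie farthest to the right, and Fas (−0.27) lies farthest to the left.

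Of the CIP/KIP inhibitors, Cdkn1a was slightly higher with GCA, and the others did not pass. Cdkn1a (ENSMUSG00000023067, chromosome 17, 29090976 to 29100727) had 229.7, 222.3 and 229.4 FPKM in GCA replicates 1 to 3, against 209.1, 202.1 and 195.5 FPKM in PBS replicates 1 to 3. Each GCA value was above each PBS value. A gene on the opposite strand, AC167363.2 (not analysed here), shares 262 bases with Cdkn1a transcripts, and whether strand was used in counting is unknown here. Many other genes match Cdkn1a transcripts at 95% identity or more, over stretches of up to 165 bases. On the log2 scale the difference was 0.17 (SE 0.046, limma adjusted p = 0.0391), a ratio of means of 1.12. This call was not stable. The adjusted p was 0.124 and 0.103 with GCA replicates 1 and 3 left out in turn, 0.11 and 0.139 with PBS replicates 2 and 3 left out in turn, 0.0621 with plain limma moderation and 0.086 with no filter on low values, while the log2 fold change stayed between 0.14 and 0.19. Cdkn1b, which encodes p27 (ENSMUSG00000003031, chromosome 6, 134920401 to 134925513), had 7.80, 9.27 and 9.18 FPKM in GCA replicates 1 to 3 and 8.21, 9.30 and 8.38 FPKM in PBS replicates 1 to 3. The groups overlapped throughout, and the log2 fold change was 0.02 with a 95% interval of −0.16 to 0.19 (limma adjusted p = 0.913). Cdkn1c, which encodes p57, stood at 2.98 ± 0.52 FPKM with GCA and 3.45 ± 0.83 with PBS (SD, n = 3 each; adjusted p = 0.539). Cdkn1a alone made up 47.1% to 50.2% of the summed FPKM of the 7 CDK inhibitors in GCA libraries and 44.2% to 47.6% in PBS libraries, and these ranges overlapped.

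The INK4 inhibitors divided into a pair that did not pass and a pair that rose. Cdkn2a (ENSMUSG00000044303, chromosome 4, 89274471 to 89294653) had 118.7, 116.1 and 139.0 FPKM in GCA replicates 1 to 3, against 122.1, 122.1 and 133.0 FPKM in PBS replicates 1 to 3. GCA replicate 3 was the highest of all and GCA replicate 2 the lowest, so the PBS range lay inside the GCA range. The log2 fold change was −0.02, with a 95% interval of −0.19 to 0.16, that is 0.878-fold to 1.11-fold (limma adjusted p = 0.909), and its sign changed under 3 of 14 alternatives. Its neighbour Cdkn2b, which encodes p15 (ENSMUSG00000073802, chromosome 4, 89306299 to 89311039), had 73.1, 72.0 and 78.6 FPKM in GCA replicates 1 to 3, against 80.1, 77.0 and 83.3 FPKM in PBS replicates 1 to 3. Its groups overlapped, and the log2 fold change was −0.10 with a 95% interval of −0.23 to 0.02 (limma adjusted p = 0.215). In both groups replicate 3 held the highest value of both neighbours. The ratio of Cdkn2a to Cdkn2b was 1.61 to 1.77 in GCA libraries and 1.52 to 1.60 in PBS libraries. The transcripts of these neighbours match at 75.8% over 347 aligned bases, and their longest identical stretch is 23 bases, far short of a 150 bp read.

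Cdkn2c, which encodes p18 (ENSMUSG00000028551, chromosome 4, 109660876 to 109667189), rose 1.62-fold by ratio of means. It had 12.0, 12.6 and 13.8 FPKM in GCA replicates 1 to 3, against 7.86, 8.20 and 7.64 FPKM in PBS replicates 1 to 3, and the lowest GCA value stood well above the highest PBS value. Its log2 fold change was 0.63 (SE 0.062, limma adjusted p = 0.000719), and the call held under all 14 alternatives. Cdkn2d, the remaining INK4 gene, encodes p19Ink4d, a different protein from p19Arf. It rose too, with 13.4, 13.3 and 14.2 FPKM in GCA replicates 1 to 3 and 8.33, 9.27 and 10.1 FPKM in PBS replicates 1 to 3 (log2 0.52, SE 0.070, limma adjusted p = 0.00253). Together Cdkn2c and Cdkn2d held 11.4% to 12.1% of the summed INK4 FPKM in GCA libraries and 7.41% to 8.07% in PBS libraries, without overlap. Cdkn2a and Cdkn2b kept most of that sum in each library, which was 214.0 to 245.6 FPKM in GCA and 216.5 to 234.1 FPKM in PBS.

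Many genes among CDKs, cyclins, the RB family, E2F factors and their regulators were higher with GCA, cyclins of mitosis among them. Of 33 tested genes among CDKs, cyclins, the RB family, E2F factors and their regulators, 13 were higher with GCA, 1 was lower and 19 missed the threshold (median log2 fold change 0.19), which is 42.4% called beside 17.9% of all genes tested. The mitotic cyclin Ccnb2 stood at 15.6 ± 1.06 FPKM with GCA and 8.30 ± 0.59 with PBS, and Ccnb1 at 9.81 ± 0.51 with GCA and 5.98 ± 0.27 with PBS, with limma adjusted p of 0.000396 and 0.000553 (SD, n = 3 each). Skp2, which targets p27 for degradation, rose to 3.96 ± 0.42 FPKM with GCA, against 2.19 ± 0.16 with PBS (adjusted p = 0.00202) while Cdkn1b transcripts did not pass. Cdk4 and Cdk6, on which INK4 proteins act, did not pass. Cdk4 was at 51.4 ± 4.37 FPKM with GCA and 54.7 ± 2.53 with PBS, and Cdk6 at 5.05 ± 0.19 with GCA and 5.86 ± 0.21 with PBS (adjusted p = 0.397 and 0.0583). Cyclin Ccnd1 did not pass either, at 56.8 ± 5.73 FPKM with GCA and 58.3 ± 3.00 with PBS (adjusted p = 0.772). Cyclin Ccnd2 was the 1 gene that fell, to 38.7 ± 2.95 FPKM with GCA, against 52.7 ± 5.25 with PBS (log2 −0.43, adjusted p = 0.0104, and 0.0507 with no filter on low values). Of these 33, 14 were past the threshold, and 9 when PBS replicate 3 was left out. Of 20 mitosis genes 18 were higher with GCA (90%, beside 11.5% of all genes tested) and 2 missed the threshold (median log2 fold change 0.54). By library, the median difference of these 20 genes from the PBS mean was 0.51 to 0.58 in GCA and −0.05 to 0.06 in PBS, and their part in the rises of Cdkn2c, Cdkn2d and Lmnb1 was not tested.

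**Figure D3:**
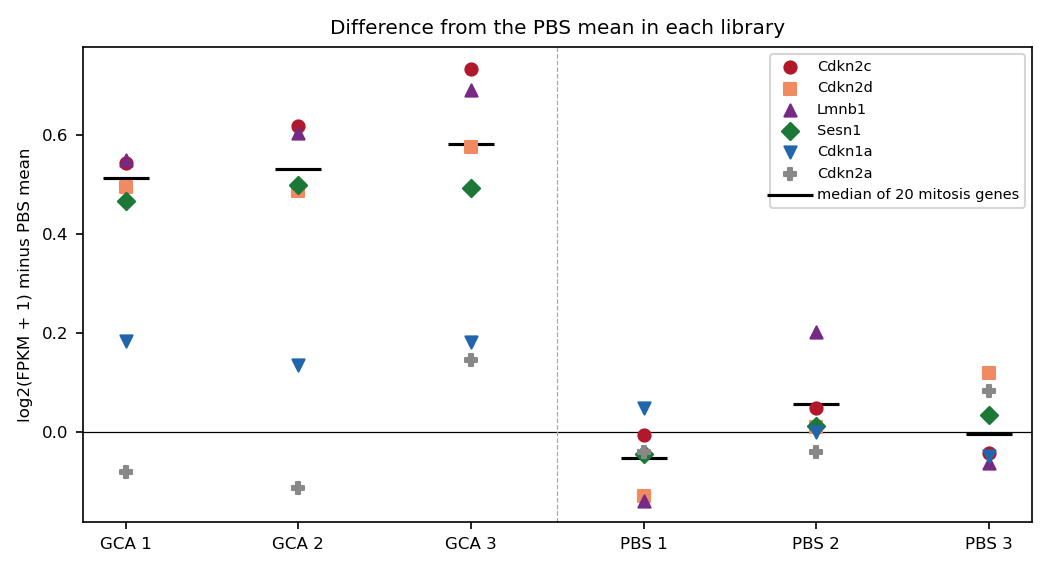
Difference of log2(FPKM + 1) from the PBS mean in each library for Cdkn2c, Cdkn2d, Lmnb1, Sesn1, Cdkn1a and Cdkn2a (symbols) and the median of 20 mitosis genes (black lines). In the 3 GCA libraries Cdkn2c, Cdkn2d, Lmnb1 and Sesn1 lie at 0.47 to 0.73, around the mitosis median of 0.51 to 0.58, Cdkn1a lies lower but above 0, and Cdkn2a lies on both sides of 0.

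Every GCA value of Trp53 and of Mdm2 lay below the PBS values, but neither gene passed. Trp53 (ENSMUSG00000059552, chromosome 11, 69580359 to 69591873) had 20.7, 18.5 and 22.0 FPKM in GCA replicates 1 to 3, against 23.7, 22.3 and 23.4 FPKM in PBS replicates 1 to 3. Each GCA value was below each PBS value, with GCA replicate 2 the lowest. The log2 fold change was −0.18 with an unadjusted 95% interval of −0.33 to −0.02, and the limma adjusted p was 0.107, with a range of 0.0615 to 0.265 over 14 alternatives. Trp53 transcripts match those of the pseudogene Trp53-ps at 97.7% over 353 bases, so reads could be shared, and the pseudogene was not analysed here. At 95% identity or more, many other genes match Trp53 transcripts over up to 87 bases and Mdm2 transcripts over up to 143 bases. Mdm2 (ENSMUSG00000020184, chromosome 10, 117688875 to 117710758) had 54.5, 47.2 and 55.8 FPKM in GCA replicates 1 to 3, against 57.7, 55.8 and 56.8 FPKM in PBS replicates 1 to 3. The top GCA value and the bottom PBS value nearly touched, and GCA replicate 2 stood apart below. The log2 fold change was −0.11 with a 95% interval of −0.27 to 0.04 (limma adjusted p = 0.271), and it was −0.04 (adjusted p = 0.583) without GCA replicate 2. The ratio of Cdkn1a to Trp53 was 10.4 to 12.0 in GCA libraries and 8.34 to 9.05 in PBS libraries, and that of Cdkn1a to Mdm2 was 4.11 to 4.71 in GCA and 3.44 to 3.62 in PBS.

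The targets of p53 did not move in 1 direction. Sesn1, a stress-induced sestrin that restrains mTORC1 (ENSMUSG00000038332, chromosome 10, 41809935 to 41908424), had 27.0, 27.6 and 27.5 FPKM in GCA replicates 1 to 3, against 18.7, 19.4 and 19.7 FPKM in PBS replicates 1 to 3. The values were tight within each group and far apart between groups. Sesn1 rose 1.42-fold by ratio of means (log2 0.49, SE 0.044, limma adjusted p = 0.000522), and the call held under all 14 alternatives. Fas, the death receptor that triggers apoptosis on binding Fas ligand (ENSMUSG00000024778, chromosome 19, 34290666 to 34327772), moved the other way. It had 27.5, 25.1 and 24.6 FPKM in GCA replicates 1 to 3, against 32.0, 30.6 and 31.3 FPKM in PBS replicates 1 to 3, with every GCA value below every PBS value. Its log2 fold change was −0.27 (SE 0.054, limma adjusted p = 0.0115), a ratio of means of 0.822, and the adjusted p was 0.00423 to 0.046 over 14 alternatives. The ratio of Sesn1 to Fas in the same library was 0.982 to 1.12 with GCA and 0.584 to 0.634 with PBS.

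Among other p53 targets, 34 tested genes gave 2 higher, 4 lower and 28 not past the threshold, and their median log2 fold change was −0.07. The 6 called are 17.6% of the list, close to the 17.9% of all genes tested. Gdf15, a stress cytokine, was higher at 52.4 ± 4.45 FPKM with GCA and 38.5 ± 1.62 with PBS (log2 0.43, limma adjusted p = 0.00464). Gadd45a, a growth arrest and DNA damage gene, fell to 2.50 ± 0.51 FPKM with GCA, against 4.75 ± 0.13 with PBS (log2 −0.73, adjusted p = 0.0033). Eda2r, a receptor of the same superfamily as Fas, fell to 10.4 ± 1.36 FPKM with GCA, against 13.8 ± 0.43 with PBS (adjusted p = 0.0174). This p became 0.0638 when PBS replicate 1 was left out, 0.0594 when PBS replicate 2 was and 0.0754 with no filter on low values. The cyclin-like gene Ccng1 stood at 248.4 ± 11.7 FPKM with GCA and 276.2 ± 9.38 with PBS (adjusted p = 0.0803), and the apoptosis effector Bax at 33.8 ± 2.46 with GCA and 35.9 ± 1.97 with PBS (adjusted p = 0.414). The count of 6 became 3 with GCA replicate 1 left out, 4 with GCA replicate 3 left out and 2, 2 and 3 with PBS replicates 1 to 3 left out in turn.

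Of 17 tested p53 regulators 2 fell and 15 did not pass (median log2 fold change −0.03), which is 11.8% called, beside 17.9% of all genes tested. The 2 were the kinase Hipk2, at 3.85 ± 0.51 FPKM with GCA and 6.32 ± 1.17 with PBS, and the ubiquitin ligase Cop1, at 4.30 ± 0.27 with GCA and 5.16 ± 0.07 with PBS. Both calls were fragile: no p53 regulator passed without GCA replicate 1, PBS replicate 1 or PBS replicate 3, and 1 passed without each of the other libraries. Mdm4, the partner of Mdm2, was at 8.55 ± 0.12 FPKM with GCA and 7.48 ± 0.41 with PBS (adjusted p = 0.0632). Among 21 tested sestrin and mTORC1 sensing genes 1 rose and 1 fell (median 0.02), or 9.52% called beside the same 17.9%, while 4 passed after quantile normalization. Rragd, a GTPase that brings mTORC1 to lysosomes, rose to 6.94 ± 1.25 FPKM with GCA, against 4.25 ± 0.30 with PBS (adjusted p = 0.013, but 0.0515 without PBS replicate 2 and 0.0581 with no filter). Sesn2, the close relative of Sesn1, stood at 18.5 ± 0.83 FPKM with GCA and 21.6 ± 1.35 with PBS (log2 −0.21, adjusted p = 0.0429), but its adjusted p was 0.128 and 0.108 with GCA replicates 1 and 3 left out in turn and 0.105, 0.0787 and 0.069 with PBS replicates 1 to 3 left out in turn, and 0.125 with no filter. The count in this list was 1 without each of GCA replicates 1 and 3 and PBS replicates 1 and 3, and 0 without PBS replicate 2.

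Lmnb1, the B-type lamin of the nuclear envelope (ENSMUSG00000024590, chromosome 18, 56707813 to 56753424), rose 1.63-fold by ratio of means. It had 7.41, 7.74 and 8.27 FPKM in GCA replicates 1 to 3, against 4.22, 5.62 and 4.51 FPKM in PBS replicates 1 to 3. The groups did not overlap, and PBS replicate 2 was the highest of its group. Its log2 fold change was 0.61 (SE 0.092, limma adjusted p = 0.00378), and the call held under all 14 alternatives. Of 22 tested genes of the nuclear envelope and chromatin 6 were higher with GCA (27.3%, beside 11.5% of all genes tested) and 16 missed the threshold (median log2 fold change 0.08). Hmgb2, a chromatin protein also reduced in senescent cells, stood at 15.0 ± 1.34 FPKM with GCA and 8.90 ± 1.23 with PBS (log2 0.69, adjusted p = 0.00367), and Tmpo, a lamin-binding protein, at 6.84 ± 0.32 with GCA and 4.64 ± 0.13 with PBS (log2 0.47, adjusted p = 0.00146). The other lamins did not pass: Lmna was at 60.4 ± 3.29 FPKM with GCA and 59.3 ± 1.56 with PBS, and Lmnb2 at 5.06 ± 0.58 with GCA and 3.97 ± 0.47 with PBS (adjusted p = 0.777 and 0.073). The count of 6 was 3 when either GCA replicate 3 or PBS replicate 1 was left out.

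Regulators of the Cdkn2a locus and secreted factors linked to senescence held calls in both directions. Of 21 tested regulators of the locus 4 rose, 1 fell and 16 did not pass (median −0.04). This is 23.8% called, beside 17.9% of all genes tested, and the count of 5 was 2 with GCA replicate 1 left out and 3, 1 and 2 with PBS replicates 1 to 3 left out in turn. Ezh1, a Polycomb methyltransferase, rose to 6.36 ± 0.28 FPKM with GCA, against 4.96 ± 0.14 with PBS (adjusted p = 0.00866). Kdm6b, Ezh2 and Id1 rose too (log2 0.27, 0.32 and 0.30, limma adjusted p = 0.0145, 0.0165 and 0.0315). Ets2 was the 1 that fell (log2 −0.99, limma adjusted p = 0.0379). Of the 5 called, Ezh1 alone passed with each library left out in turn. Bmi1, the Polycomb repressor of Cdkn2a, was at 13.1 ± 0.74 FPKM with GCA and 14.3 ± 0.77 with PBS (adjusted p = 0.223). Of 36 tested genes for secreted and related factors that senescent cells are known to make, 4 rose, 6 fell and 26 did not pass, with a median of −0.10. The shares were 11.1% higher and 16.7% lower, beside 11.5% and 6.43% of all genes tested. The chemokine Ccl8 rose to 95.7 ± 17.4 FPKM with GCA, against 26.5 ± 2.76 with PBS, and the cytokine Il1a to 3.18 ± 0.95 with GCA, against 0.42 ± 0.19 with PBS (adjusted p = 0.000791 and 0.00132). The PBS mean of Il1a was under 1 FPKM, so this gene passed the filter only through its GCA values. The chemokine Cxcl5 fell to 8.72 ± 1.83 FPKM with GCA, against 25.6 ± 3.46 with PBS, and the activin subunit Inhba to 15.4 ± 1.62 with GCA, against 22.0 ± 0.76 with PBS (adjusted p = 0.00279 and 0.00373). Macrophages also make several of these factors, and in the same libraries macrophage markers held calls in both directions, as given above. The part of macrophages in the calls of these factors was not tested. The interleukin Il6 was under the filter, at 0.25 ± 0.02 FPKM with GCA and 0.43 ± 0.12 with PBS.

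**Figure D4:**
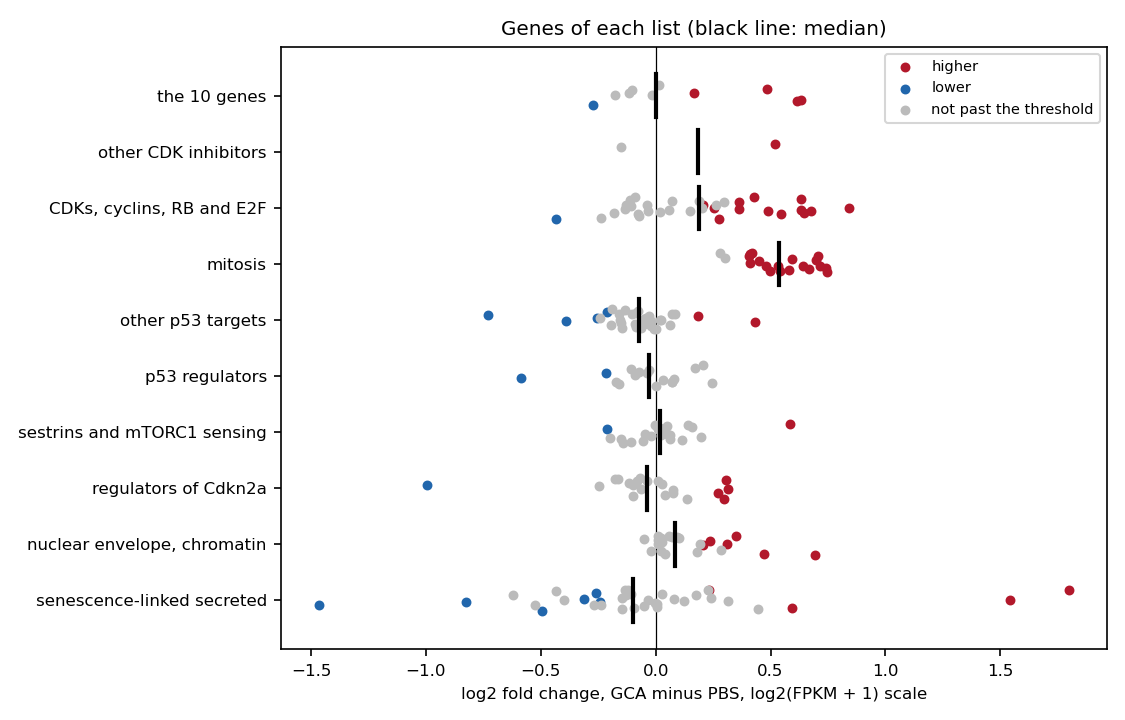
Log2 fold change (GCA minus PBS) of each tested gene of the 10 genes and of 9 related lists, with the median of each as a black line. Mitosis genes (median 0.54) and CDK and cyclin genes (0.19) lie to the right, p53 targets (−0.07) and p53 regulators (−0.03) lie around 0, with 4 p53 targets called on the left and 2 on the right, and secreted factors spread most widely.

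For each called gene, the tested genes most like it in the 6 libraries were sought among 7042 named genes averaging 5 FPKM or more, by the root mean square difference between log2(FPKM + 1) values centred on their mean over the libraries. Lmnb1 was most like the mitotic genes Top2a (0.0472), Ncapd2 (0.0521) and Ndc80 (0.0542). Sesn1 was most like Tmpo (0.0279), Fblim1 (0.0287) and Cotl1 (0.0297). Cdkn2c was most like Arhgap19 (0.0444), Prss35 (0.0448) and Sdc3 (0.0507), Fas was most like Rcl1 (0.0215), Dhx40 (0.0268) and Plin2 (0.0277), and Cdkn1a was most like Mcur1 (0.0180), Cyth3 (0.0182) and Mtmr9 (0.0183). The 6 libraries fall into the same 2 groups for every gene compared.

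**Figure D5:**
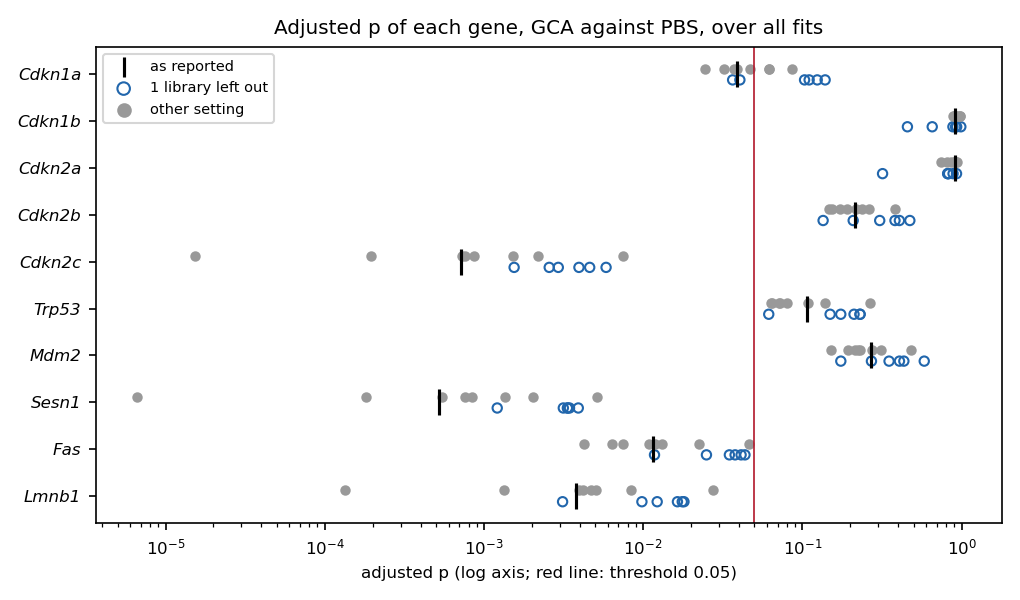
Limma adjusted p (log axis) of the 10 genes as reported (black mark), with 1 library left out (6 open circles) and under 8 other settings (grey points), with the threshold of 0.05 as a line. Cdkn2c, Sesn1, Fas and Lmnb1 stay left of the line throughout, Cdkn1a falls on both sides, and Cdkn1b, Cdkn2a, Cdkn2b, Trp53 and Mdm2 stay on its right.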

How the data were processed

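The labels' protocols give 150 bp paired-end sequencing. The submitters' processing notes name Bowtie 0.12.2, with mm8 and mm9 as builds. For the counting step, a tool and annotation were not given in the sources used here. Deposited values carry no unit and were taken as FPKM computed by the authors: multiplied by exon-union lengths of GENCODE M21 (GRCm38), 90.9% were whole fragments within 0.02, over 1 total per library. This held in every library for 7 of the 10 genes. It did not for Cdkn1a, Cdkn2b and Fas. Coordinates were attached from GENCODE M21 by identifier (27204 of 27263 matched), since the named builds are older than GRCm38.

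The test was limma-trend with robust moderation (limma 3.58.1, R 4.3.3), two-sided, on log2(FPKM + 1) of genes averaging 1 FPKM or more, with treatment as the only term. Fold changes on this scale understate those of low genes. The step was tested on simulated data. Alternatives were quantile normalization, median centring, no filter, a mean of at least 5 FPKM, a pseudocount of 0.1, plain limma moderation, the replicate number as a block, limma-voom on recovered fragments and leaving out each library. The genes, lists and motifs were chosen with earlier results of these data known. Some results are not reported here. Named genes were the 10, a fixed set of related genes, and up to 4 called genes of each list in each direction with the smallest p. Sequences were searched with Python 3.11.15 and BLAST 2.17.0.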

Additional observations from a re-analysis of the deposited data

How the results depend on the processing

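Of 140 refits of the 10 genes (14 alternatives each), 133 kept the side of the threshold, and the 7 that did not were all of Cdkn1a. Its log2 fold change was 0.17 with no filter (adjusted p = 0.086), with plain limma moderation (0.0621) and with the replicate block (0.0619), and 0.14 to 0.19 (0.0365 to 0.139) on leaving out each library. The replicate numbers were not taken to pair the samples: same-numbered libraries had correlations of 0.08, 0.03 and 0.07 between deviations from group means. Every library correlated best with its own number, which is a hint from the data only. Under the block 2094 genes passed.

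Over all genes, 1075 passed with no filter (735 higher, 340 lower), where 27263 genes were tested. Leaving out each library gave 1232 to 2088, with 842 to 1317 higher and 390 to 771 lower. Counts in the lists with no filter were 2 p53 targets, 0 p53 regulators, 7 CDK and cyclin genes, 2 regulators of Cdkn2a, 3 nuclear envelope genes and 0 sestrin and mTORC1 genes. A mean of at least 5 FPKM gave 1 p53 regulator, 6 secreted factors and 4 sestrin and mTORC1 genes. The last list also gave 4 after quantile normalization, 4 after median centring, 1 with the block and 5 with limma-voom. p53 regulators gave 0 with the block and 4 with limma-voom, and plain limma moderation gave 3 p53 targets and 1 sestrin and mTORC1 gene. Leaving out each library gave 2 to 5 p53 targets, 0 to 1 p53 regulators, 9 to 15 CDK and cyclin genes, 1 to 6 regulators of Cdkn2a, 3 to 4 nuclear envelope genes and 0 to 2 sestrin and mTORC1 genes. Where a count moved with scaling, moderation or the block, the cause was not tested. With 3 libraries a group, the 95% intervals of Cdkn1b and Cdkn2a allow differences of up to about 0.19 log2 units either way.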
